A study of Homo sapiens with 12 samples.

Results

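The subject is the set of genes whose response to 2 drugs given together departed from the sum of their responses to each drug given alone. Members were chosen by a fit over all 12 libraries of the study, as genes whose log2 interaction, (combination minus tazemetostat) minus (ipatasertib minus DMSO), passed an adjusted p of 0.05. They numbered 1744 of 14571 tested genes, out of 23228 genes in the count tables; the remaining 8657 genes had too few reads to test, 3351 of them none at all. RNA came from MDA-MB-468, an established cell line of basal, triple-negative breast cancer, and poly(A) transcripts were sequenced. The 4 groups of 3 libraries each, named A, B and C, were DMSO (the solvent), ipatasertib at 5 µM, tazemetostat at 5 µM, and the combination of both at 5 µM each. Cells were kept in tazemetostat or DMSO from day -5, and ipatasertib was added on day 0. All groups shared medium with 2% serum from then on and were collected after 24 h, so cells saw tazemetostat for days and ipatasertib for 1 day only. A single cell line was used, and nothing in the labels marks A, B and C as separate cultures, so the p-values reflect library-to-library spread that may be technical.

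Ipatasertib inhibits AKT, a kinase downstream of PI3K that promotes growth and survival and keeps FOXO transcription factors out of the nucleus. Tazemetostat inhibits EZH2, the methyltransferase of the Polycomb complex PRC2, which silences genes by methylating lysine 27 of histone H3. On the log2 scale, 2 drugs act additively on a gene when their fold changes multiply: the level expected with the combination is then the ipatasertib level times the tazemetostat level divided by the DMSO level. A gene is called above the sum where the combination exceeded that level, and below the sum where it fell short. The log2 departure is the size of the gap, so that 1 means a level 2-fold above the expected one. Levels are counts brought to a common library size of 1e+06 (CPM) with edgeR's TMM factors, given per library in the order A, B, C or as mean ± SD (n = 3). Adjusted p-values are from edgeR's quasi-likelihood test with Benjamini-Hochberg adjustment over all tested genes.

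Before the results, several properties of the libraries bear on every departure. Counts in genes were lowest with the combination, at 12981622 to 17948209 per library, against 18926477 to 28746965 in the other 9 libraries. Of the counted total, 19.85% ± 1.43 of the reads fell outside genes in the DMSO libraries, 21.13% ± 1.65 in the tazemetostat libraries, 23.25% ± 1.01 in the ipatasertib libraries and 25.21% ± 0.95 in the combination libraries (SD, n = 3). Libraries of 1 group also differed in how their levels ran with the GC content of the transcript. The gap between transcripts under 40% and over 60% GC, taken as log2 deviation from the mean of all libraries, was 0.42 in combination B and 0.38 in combination C but -0.04 in combination A. It was -0.25 in tazemetostat B and -0.17 in tazemetostat C but 0.18 in tazemetostat A, and it lay between -0.27 and 0 in the other 6 libraries. Library A thus stood apart from B and C in both tazemetostat-treated groups.

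The departures followed GC content in turn. Transcripts of genes above the sum had a median GC content of 40.3% (788 of 869 genes with a value), those below the sum 56.4% (805 of 875), and genes not called 48.9%. In the GC-poorest decile of tested genes, 22.1% were called above and 0.2% below the sum, with a median log2 departure of 0.27. In the GC-richest decile, 0.5% were above and 9.5% below, with a median of -0.18. A second fit removed each library's trend over GC content. In it the decile medians lay between -0.02 and 0.01, and 1599 of 12740 genes were called (12.6%), 854 above and 745 below. Of the 1593 called genes with a GC value, 974 (61.1%) were called in the same direction after the correction and 0 in the opposite one. The correction also takes out any response that itself follows GC content, and which part of the trend is of which kind was not tested. The corrected log2 departure is printed, as the value after correction, beside most genes whose departure is given.

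**Figure D1:**
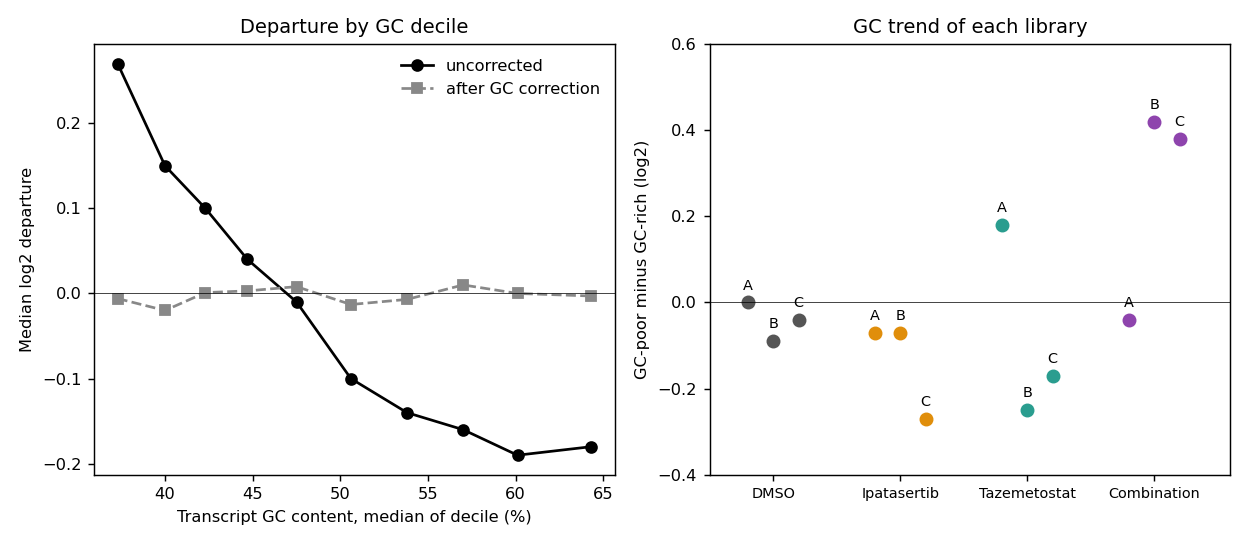
Left, median log2 departure of tested genes in each decile of transcript GC content, before (circles) and after (squares) removing the GC trend of each library. Right, GC-poor minus GC-rich difference of each library (log2, letters A to C); the median departure falls from 0.27 to -0.18 across deciles, and libraries B and C of the combination stand at 0.42 and 0.38.

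The call counts moved with single libraries. Leaving out combination B gave 674 called genes, DMSO C 676, tazemetostat B 714, tazemetostat C 889, DMSO B 945, ipatasertib A 982 and ipatasertib C 1036. Leaving out combination A gave 3231, leaving out tazemetostat A 3681, and leaving out the A library of every group 5452. None of these fits called a member in the opposite direction.

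Among the 14571 tested genes, 1744 departed from additivity (12%), 869 above the sum (5.96%) and 875 below it (6.01%). Above the sum stood 16 of 26 mitosis genes, the matrix genes TGFBI and FN1, the FOXO-controlled adaptor IRS2 and the luminal transcription factor GATA3. Below it stood 12 of 32 DNA replication genes, the transcription factor MYC, the signalling inhibitor RGS2 and the basal keratin KRT5. The luminal and basal lists each held called members in both directions. The luminal genes MUC1, SPDEF and XBP1 lay below the sum, and the basal genes TP63 and CAV2 above it. Scaling by library totals in place of TMM factors changed the counts of called genes to 694 above and 1369 below the sum. Most departures were small: the median absolute log2 departure of the called genes was 0.48, a 1.4-fold gap, and 72.1% were gaps of less than 1.5-fold. An absolute log2 departure of at least 1 was reached by 87 called genes, 45 above and 42 below the sum. The median over all tested genes was -0.016, with quartiles of -0.226 and 0.206, and 4255 genes had an unadjusted p under 0.05. At the threshold, the last gene inside was NEBL above the sum, with a log2 departure of 0.35 (adjusted p = 0.0497; 0.12 and not called after correction), and ADRBK1 below it, with -0.40 (adjusted p = 0.05). The first genes outside were KLHDC7A, with 1.11 (adjusted p = 0.0504; 1.29 and called after correction), and PNP, with -0.27 (adjusted p = 0.0503). PNP was more abundant and departed less than KLHDC7A, so the threshold separated genes by precision as well as by size.

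**Figure D2:**
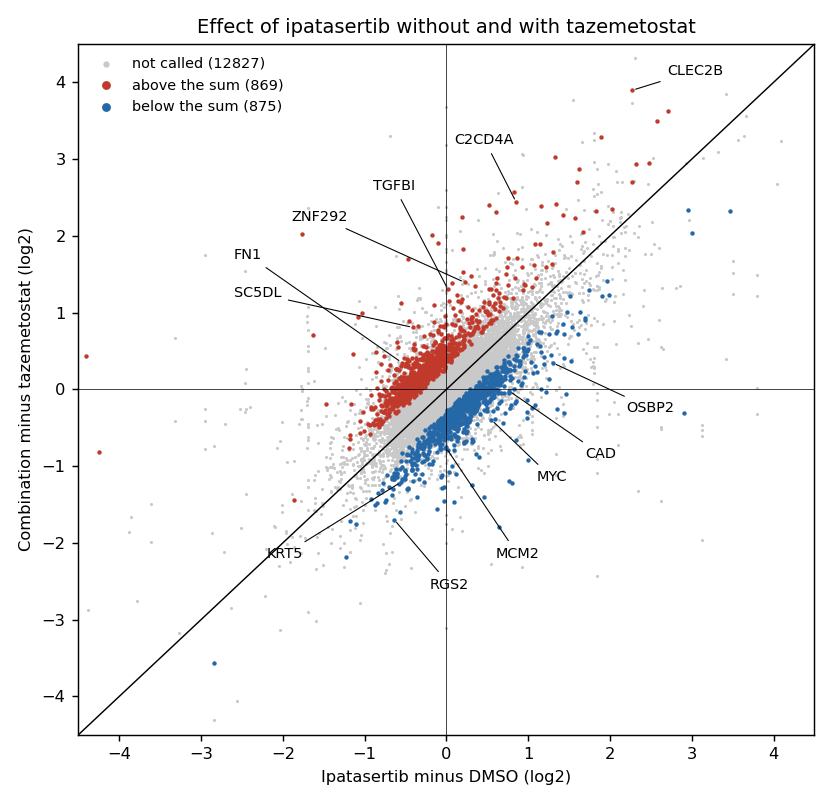
Each point is a tested gene, placed by the log2 effect of ipatasertib without tazemetostat (x) and with it (y); the diagonal marks additivity. The 869 genes called above the sum (red) and the 875 below it (blue) flank the diagonal along its whole length; 5 genes lie outside the plotted range of ±4.5.

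Sorted by which single-drug effects were themselves called, the members fell mostly into forms in which the departure ran against the called single-drug effects. Such sub-additive forms held 1128 of the 1744 genes (64.7%). Over all tested genes, 47.1% were called with ipatasertib and 47.2% with tazemetostat against DMSO, so that single effects were common. The largest forms were 338 genes that each drug lowered and whose combined fall was too small, and 286 genes that each drug raised and whose combined rise was too small. In 504 further genes 1 drug alone had an effect and the other drug blunted it: a rise with ipatasertib in 132, a fall with tazemetostat in 130, a rise with tazemetostat in 125 and a fall with ipatasertib in 117. Some of these passed DMSO to the other side. The combination was called lower than DMSO in 12 of the 132 and 19 of the 125. It was called higher than DMSO in 27 of the 130 and 15 of the 117. Only 225 genes (12.9%) moved more than the sum in the direction of the called single-drug effects. Among them, 37 were raised and 27 lowered by each drug alone, and in 161 the effect of 1 drug was enhanced by a second that had no called effect of its own. The 2 drugs acted in opposite directions on 119 genes (6.8%), and on 272 (15.6%) neither single drug passed the test. After GC correction the sub-additive share was 63.4% of 1599 genes, the larger-than-sum share 15.6%, the opposite share 11.4% and the share with neither drug called 9.6%. The interaction and the single-drug effects share the DMSO, ipatasertib and tazemetostat libraries. An error in any one of them moves a single-drug effect and the interaction in opposite directions, which favours the sub-additive forms. Its part in their share was not tested, and the sorting is a description and not a test.

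**Figure D3:**
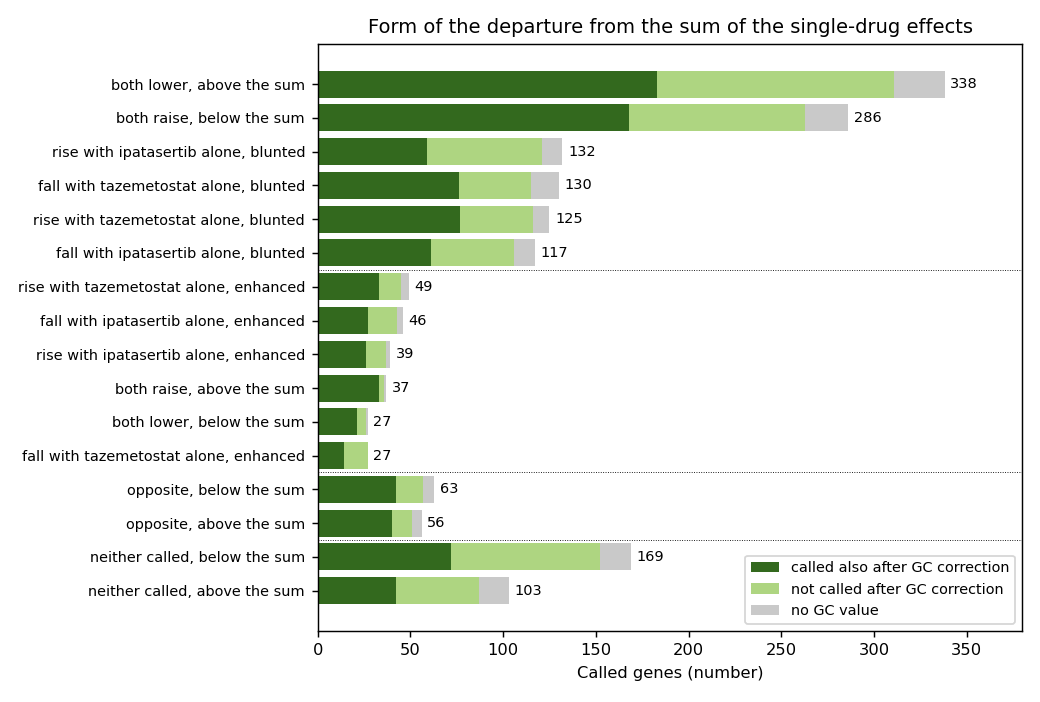
Number of called genes in each form of departure, grouped as smaller than the sum, larger than the sum, opposite single-drug effects and neither single drug called (dotted lines). Smaller than the sum means a departure against the called single-drug effects. Dark green marks genes called also after GC correction; the 2 largest bars are the 338 genes lowered and the 286 genes raised by both drugs whose combined change fell short of the sum.

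In the 286 genes that both drugs raised too little together, the combination exceeded both single drugs in 21 and exceeded 1 of them in 65. Against all tested genes, the combination was called different from tazemetostat in 46.3% and from ipatasertib in 44.9%. It was not called against either single drug in 146 of the 286, and was lower than at least 1 of them in 54, in 16 of these lower than both. Among the 338 genes that both drugs lowered, the corresponding counts were 5, 28, 225 and 80, with 16 higher than both single drugs. In these forms with 2 single-drug effects, a combination level not called different from either single drug was thus the commonest outcome. In all 37 and all 27 genes of the forms larger than the sum with 2 single effects, the combination lay beyond both single drugs. Its direction there follows from the sorting and is no separate result. The gap to 1 drug equals the effect of the other plus a departure of the same sign.

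Among genes that both drugs lowered, transcripts of the mitotic apparatus were prominent. TOP2A, the topoisomerase that untangles chromosomes before mitosis, stood at 702, 752 and 780 CPM with DMSO, 553, 630 and 565 with ipatasertib alone, 579, 459 and 476 with tazemetostat alone and 571, 732 and 677 with both drugs. The combination libraries lay within or above the range of the ipatasertib libraries, against an expected 395 CPM, and the log2 departure was 0.74 (SE 0.127, adjusted p = 0.00137; 0.54 after GC correction). CCNB1, cyclin B1, stood at 295, 292 and 295 CPM with DMSO, 218, 233 and 223 with ipatasertib alone, 257, 230 and 222 with tazemetostat alone and 232, 260 and 276 with both drugs. Each drug alone lowered it, and the combination was not called lower than either, at a departure of 0.50 (adjusted p = 0.00406; 0.42 after correction). CENPE, a kinesin of the kinetochore, had 93.2 ± 2.72 CPM with DMSO, 59.8 ± 3.54 with ipatasertib alone, 70.7 ± 2.63 with tazemetostat and 80.8 ± 17 with both drugs, where library A was lowest and B highest. Its departure was 0.83 (adjusted p = 0.00115; 0.48 after correction). CDK1, the kinase that drives entry into mitosis, stood at 246 ± 9.68, 153 ± 8.45, 171 ± 17.8 and 158 ± 19.1 CPM and had a departure of 0.57 that shrank to 0.29 after correction (adjusted p = 0.00539 and 0.00982). HSP90AA1, an abundant chaperone, stood at 3495 ± 196, 2341 ± 247, 2696 ± 355 and 2634 ± 272 CPM in the same order of groups, against an expected 1806, a departure of 0.54 (0.52 after correction); it has close copies, so its count is uncertain. IGFBP5, a secreted binder of insulin-like growth factors known from mammary involution, went from 197 ± 3.82 to 153 ± 10.4, 120 ± 7.7 and 148 ± 12.9 CPM, a departure of 0.67 (0.78 after correction).

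Genes that both drugs raised too little together included stress, matrix and lysosomal genes. ALDH3A1, an aldehyde dehydrogenase, stood at 5.04, 4.77 and 4.74 CPM with DMSO, 17.4, 13.5 and 10.9 with ipatasertib alone, 15.9, 18.8 and 18.1 with tazemetostat alone and 24.3, 23.4 and 20.5 with both drugs. Every combination library exceeded every other library, yet the mean of 22.7 was under the 50.6 CPM expected, a departure of -1.15 (SE 0.188, adjusted p = 0.000925; -0.96 after correction). MGAT5, which branches N-glycans, rose with each drug and was not called higher with both than with either: 2.92 ± 0.349, 5.98 ± 1.09, 9.05 ± 1.45 and 7.7 ± 1.78 CPM, a departure of -1.28 (-1.23 after correction). CTSF, the lysosomal protease cathepsin F, stood at 26.7 ± 1.01, 104 ± 3.69, 43.5 ± 2.86 and 116 ± 7.04 CPM, where 170 was expected, a departure of -0.55 (-0.36 after correction). NOV, the matricellular protein CCN3, reached the highest level with the combination, 91.7 ± 3.01 CPM from 2.79 ± 0.393 with DMSO, and still fell short of the 147 expected, a departure of -0.68 (-0.67 after correction). BMF, a pro-apoptotic BH3-only protein, stood at 15.4 ± 0.118, 22.8 ± 2.12, 52 ± 4.88 and 58.4 ± 3.08 CPM in the order of groups used above. Its departure of -0.40 (adjusted p = 0.0371) was -0.25 after GC correction (adjusted p = 0.0998), so the call was lost there.

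Single-drug effects that the other drug blunted came in all 4 directions. CAD, the enzyme that starts pyrimidine synthesis, rose with ipatasertib alone and stood at 73.4, 70.4 and 70 CPM with DMSO, 127, 118 and 118 with ipatasertib alone, 69.2, 84.6 and 81.6 with tazemetostat alone and 84.1, 69.4 and 79.1 with both drugs. With tazemetostat present, the 3 combination libraries overlapped the tazemetostat libraries: ipatasertib changed CAD by 0.76 on the log2 scale without tazemetostat and by -0.02 with it, a departure of -0.78 (adjusted p = 0.000512; -0.60 after correction). ACSS2, which makes acetyl-CoA from acetate, took the same form at 221 ± 1.9, 286 ± 3.15, 207 ± 3.23 and 196 ± 8.24 CPM, a departure of -0.45 (-0.31 after correction). CTSD, the lysosomal protease cathepsin D, rose with tazemetostat alone and stood at 579, 568 and 578 CPM with DMSO, 577, 540 and 575 with ipatasertib alone, 751, 913 and 873 with tazemetostat alone and 645, 541 and 584 with both drugs. With both drugs its libraries lay around the DMSO libraries, and its departure was -0.49 (adjusted p = 0.00645; -0.30 after correction). AKR1C2, an aldo-keto reductase that acts on steroids and has close copies, so that its count is uncertain, rose from 219 ± 8.25 to 264 ± 10.8 CPM with tazemetostat and was 168 ± 10.3 with the combination. That is under every library of the other groups, at a departure of -0.58 (-0.74 after correction).

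Falls were blunted in the same way, and in some genes the combination lay above DMSO. NPM1, the nucleolar protein nucleophosmin, fell with tazemetostat alone, from 1719 ± 88.4 to 1236 ± 121 CPM, and was 1776 ± 66.6 with both drugs, a departure of 0.46 (0.39 after correction). IGFBP4, a secreted binder of insulin-like growth factors, stood at 135, 140 and 138 CPM with DMSO, 137, 144 and 148 with ipatasertib alone, 73.3, 79.1 and 80.9 with tazemetostat alone and 121, 109 and 106 with both drugs. Its fall with tazemetostat was smaller when ipatasertib, which had no called effect alone, was present, at a departure of 0.47 (adjusted p = 0.00431; 0.67 after correction). ID4, an inhibitor of helix-loop-helix factors, followed the same course, with 80.2 ± 4.39, 83.9 ± 0.758, 35.1 ± 3.42 and 51.7 ± 5.41 CPM, a departure of 0.50 (0.51 after correction). SOX4, a transcription factor of progenitor and mesenchymal states, fell with ipatasertib alone but stood highest with the combination: 386, 436 and 471 CPM with DMSO, 335, 370 and 361 with ipatasertib alone, 452, 377 and 436 with tazemetostat alone and 679, 657 and 534 with both drugs. Ipatasertib changed it by -0.28 without tazemetostat (adjusted p = 0.0138) and by 0.56 with it, a departure of 0.84 (SE 0.127, adjusted p = 0.000537; 0.93 after correction).

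Among genes with at least 5 CPM in the highest group and 10 counts in every group, the 3 largest departures were rises with tazemetostat that ipatasertib enhanced. Larger fitted values belonged to genes under these limits, in which few reads set the size. FKBP9L stood at 2.69 ± 0.252 CPM with DMSO, 3.06 ± 0.388 with ipatasertib alone, 82 ± 7.18 with tazemetostat and 388 ± 43.1 with both drugs, a departure of 2.05 (adjusted p = 2.80e-06). It is a close copy of FKBP9, so reads may be shared between them, and it had no GC value. BCAT1, the cytosolic branched-chain aminotransferase, stood at 0.497, 0.363 and 0.333 CPM with DMSO, 0.174, 0.213 and 0.197 with ipatasertib alone, 5.66, 4.41 and 4.87 with tazemetostat alone and 9.36, 11.7 and 8.64 with both drugs. Both groups without tazemetostat were close to the 0.104 to 0.231 CPM that 3 counts in a library give, and the departure was 2.02 (SE 0.456, adjusted p = 0.00887; 1.78 after correction). SEMA6A, a membrane semaphorin, stood at 0.483 ± 0.192, 0.45 ± 0.126, 4.38 ± 0.349 and 16.5 ± 0.383 CPM in the same order of groups, a departure of 2.00 (2.06 after correction).

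TGFBI, a matrix protein induced by TGF-beta, was far from the detection limit and stood at 7.17, 7.81 and 6.37 CPM with DMSO, 6.49, 8.22 and 6.94 with ipatasertib alone, 25.3, 21.7 and 21.2 with tazemetostat alone and 53.2, 54.8 and 60.6 with both drugs. The 3 combination libraries were more than 2-fold above the 3 tazemetostat libraries although ipatasertib alone gave the DMSO range, and the departure was 1.29 (SE 0.152, adjusted p = 3.83e-05; 1.43 after correction). INHBA, which encodes the subunit of activin A, stood at 12.1, 14.8 and 14.6 CPM with DMSO, 13.1, 13 and 13.2 with ipatasertib alone, 27.6, 22.9 and 24.4 with tazemetostat alone and 46.5, 47.4 and 38 with both drugs. It was highest in every combination library, with a departure of 0.90 (adjusted p = 0.000807; 0.70 after correction). S100A7, the secreted psoriasin, which has close copies and is therefore uncertain, rose from 76.2 ± 7.09 to 120 ± 13.2 CPM with tazemetostat and to 176 ± 20.2 with both, a departure of 0.81 (0.86 after correction). ADM, the vasodilator peptide adrenomedullin, stood at 5.75 ± 0.334, 5.65 ± 0.803, 15.9 ± 1.47 and 27.7 ± 1.28 CPM, at a departure of 0.84 (1.03 after correction). The interleukin-6 receptor subunit IL6ST stood at 83.6 ± 2.59, 95.5 ± 9.97, 106 ± 9.88 and 182 ± 15.9 CPM and its partner IL6R at 1.7 ± 0.316, 1.64 ± 0.323, 4.18 ± 0.296 and 6.87 ± 0.619 CPM. Their departures were 0.59 and 0.78 (adjusted p = 0.00436 and 0.0431; 0.30 and 0.89 after correction).

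Rises with ipatasertib that tazemetostat enhanced included IRS2, the adaptor of insulin and IGF receptors and a gene under FOXO control, at 26.6, 28.8 and 29.6 CPM with DMSO, 82.9, 86.8 and 82.3 with ipatasertib alone, 28.9, 27.1 and 29.1 with tazemetostat alone and 131, 147 and 124 with both drugs. Tazemetostat alone left IRS2 at the DMSO level, and with ipatasertib present it raised IRS2 further in every library, at a departure of 0.67 (adjusted p = 0.000771; 0.86 after correction). GATA3, a transcription factor of luminal mammary cells, showed the same form: 94.8 ± 8.02, 132 ± 3, 93.8 ± 3.9 and 189 ± 15.7 CPM, with a departure of 0.53 (adjusted p = 0.00378; 0.67 after correction). C2CD4A had 18.3 ± 1.87 CPM with both drugs against 5.13 ± 0.488 with ipatasertib, and its departure was 1.59 (1.72 after correction). MET, the receptor of hepatocyte growth factor, stood at 115 ± 1.81, 246 ± 16.3, 127 ± 9.22 and 347 ± 27.4 CPM, a departure of 0.35 (adjusted p = 0.0302; 0.25 after correction).

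Of the 37 genes raised by each drug and raised beyond the sum by both, 33 of the 36 with a GC value were called also after correction. PRSS23, a secreted serine protease, stood at 29.4, 30.4 and 32.2 CPM with DMSO, 66.1, 66.1 and 62.5 with ipatasertib alone, 56.8, 48.7 and 49.7 with tazemetostat alone and 186, 194 and 196 with both drugs. The expected level was 109 CPM and every combination library lay above it, with a departure of 0.82 (SE 0.101, adjusted p = 7.02e-05; 0.78 after correction). ANKRD1, an ankyrin-repeat protein and target of the YAP coactivator, rose mainly with ipatasertib: 5.51 ± 0.786, 36.1 ± 1.36, 8.5 ± 0.303 and 106 ± 6.82 CPM, where 55.7 was expected, a departure of 0.92 (0.83 after correction). TFPI2, a secreted protease inhibitor, had 68.2 ± 2.54 CPM with both drugs against an expected 36.1, a departure of 0.92 (0.74 after correction). JUN, a subunit of the transcription factor AP-1, rose from 33 ± 2.42 to 38.1 ± 2.28, 42.2 ± 0.768 and 65.4 ± 5.38 CPM, a departure of 0.43 (adjusted p = 0.0184; 0.59 after correction).

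Falls larger than the sum included a keratin that defines the basal state and genes of S phase. KRT5, the basal keratin 5, stood at 1636, 1780 and 1739 CPM with DMSO, 1109, 1162 and 1243 with ipatasertib alone, 976, 1044 and 1046 with tazemetostat alone and 484, 421 and 423 with both drugs. Each drug lowered it, and the combination took it under every other library and under the 697 CPM expected, at a departure of -0.65 (SE 0.096, adjusted p = 0.000512; -0.49 after correction). KRT14, its usual partner, fell with tazemetostat alone and had a departure of -0.34 (adjusted p = 0.0293), which was -0.15 after correction (adjusted p = 0.188). Keratin genes have close copies, and their counts are uncertain for that reason. CDCA7, a MYC and E2F target that takes part in DNA methylation upkeep, stood at 51.5, 49.2 and 49.7 CPM with DMSO, 37.3, 39.4 and 36.3 with ipatasertib alone, 35.4, 30.9 and 33.1 with tazemetostat alone and 14.7, 16.4 and 17.4 with both drugs. All combination libraries were under all others, at a departure of -0.62 (adjusted p = 0.00246; -0.73 after correction). E2F1, the transcription factor of S phase genes, went from 85.2 ± 2.01 to 49.2 ± 3.89, 61 ± 6.35 and 24.5 ± 3.28 CPM, where 35.2 was expected, a departure of -0.52 (-0.33 after correction). ANPEP, aminopeptidase N, fell with tazemetostat alone from 175 to 113 CPM and further, to 73.1 ± 3.39, with both, at a departure of -0.76 (-0.58 after correction). TFCP2L1, a transcription factor known from stem cells and epithelia, stood at 200 ± 3.68, 162 ± 26, 173 ± 21.7 and 80.7 ± 6.54 CPM, a departure of -0.80 (-0.73 after correction).

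Where the single drugs acted in opposite directions, the combination could lie near 1 of them or beyond both. RGS2, which shuts off Gq-coupled signals, stood at 44.8, 48.6 and 48.3 CPM with DMSO, 30.9, 31.5 and 28.7 with ipatasertib alone, 101, 97 and 98.8 with tazemetostat alone and 25.4, 33.1 and 33.4 with both drugs. Tazemetostat alone raised it, ipatasertib alone lowered it, and with both the level was not called different from ipatasertib alone (log2 difference 0.01, adjusted p = 0.968), at a departure of -1.06 (SE 0.122, adjusted p = 3.66e-05; -1.19 after correction). MUC1, a membrane mucin of luminal cells, followed the same course: 114 ± 5.1, 61.8 ± 1.97, 182 ± 8.65 and 64 ± 5.33 CPM, a departure of -0.63 (-0.50 after correction). MYC, the growth-promoting transcription factor, stood at 72.4, 68.5 and 67 CPM with DMSO, 101, 98.6 and 105 with ipatasertib alone, 37.9, 42.2 and 39 with tazemetostat alone and 32.1, 28.6 and 29.8 with both drugs. Ipatasertib changed MYC by 0.55 on the log2 scale without tazemetostat and by -0.40 with it (adjusted p = 1.02e-06 and 0.00019), so that the sign of its effect turned, and all combination libraries were under all others. The departure of MYC was -0.94 (SE 0.102, adjusted p = 1.41e-05; -0.81 after correction). OSBP2, an oxysterol-binding protein, rose from 54.1 ± 0.334 to 133 ± 4.49 CPM with ipatasertib, but was 29.1 ± 4.66 with tazemetostat and 37.1 ± 3.5 with both, a departure of -0.96 (-0.77 after correction). CCNE1, cyclin E1, which starts S phase, stood at 27.4, 28 and 26.6 CPM with DMSO, 19, 19.7 and 19 with ipatasertib alone, 32.7, 33.4 and 33.3 with tazemetostat alone and 14.1, 15.5 and 14.8 with both drugs. It rose with tazemetostat alone and was lowest with the combination, at a departure of -0.66 (adjusted p = 0.001; -0.54 after correction).

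Above the sum, FN1, which encodes the matrix protein fibronectin, stood at 15.8, 15 and 14.6 CPM with DMSO, 11.1, 9.87 and 10.1 with ipatasertib alone, 80.6, 78.1 and 76.6 with tazemetostat alone and 103, 96.5 and 100 with both drugs. Ipatasertib lowered FN1 without tazemetostat (log2 -0.55, adjusted p = 1.37e-05) and raised it with tazemetostat present (log2 0.35, adjusted p = 0.00018), a departure of 0.89 (SE 0.106, adjusted p = 3.83e-05; 0.97 after correction). SC5DL, a sterol desaturase of late cholesterol synthesis, showed a turn of the same kind: 342, 372 and 356 CPM with DMSO, 268, 282 and 259 with ipatasertib alone, 488, 377 and 391 with tazemetostat alone and 673, 796 and 728 with both drugs. Its departure was 1.21 (SE 0.119, adjusted p = 4.01e-06), and no GC value was at hand for it. TIMP3, an inhibitor of matrix metalloproteases, stood at 176 ± 6.52, 315 ± 17.8, 83.1 ± 3.06 and 227 ± 9.26 CPM, a departure of 0.61 (0.66 after correction). NFKBIZ, an atypical IkB protein, rose with ipatasertib and fell with tazemetostat, and was 59.7 ± 8.46 CPM with both against an expected 33.9, a departure of 0.81 (0.80 after correction). CEBPD, a transcription factor of acute phase and involution, had 8.84 ± 0.541, 11.2 ± 0.988, 6.78 ± 0.923 and 17 ± 3.85 CPM and a departure of 0.99 (1.14 after correction).

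Some genes moved only when both drugs were present, in the sense that neither single effect passed the test; this is not evidence that the single effects were 0. The combination was called higher than DMSO in 78 of the 103 such genes above the sum and lower in 140 of the 169 below it. Over all tested genes it was called higher in 34.4% and lower in 30%. The choice of these genes favours such calls, because the combination effect is the 2 single effects plus the departure. The higher shares are therefore no separate result. ZNF292, a zinc finger protein, stood at 73, 71.4 and 73.3 CPM with DMSO, 85.4, 90 and 79 with ipatasertib alone, 90.1, 71.2 and 77.9 with tazemetostat alone and 179, 237 and 212 with both drugs. All combination libraries exceeded all others, with library A the lowest of the 3, and the departure was 1.17 (SE 0.13, adjusted p = 2.15e-05; 0.88 after correction). LFNG, the glycosyltransferase that tunes Notch receptors, stood at 6.12 ± 0.613, 5.5 ± 1.12, 6.9 ± 0.914 and 14.8 ± 2.23 CPM, a departure of 1.26 (1.45 after correction). MCM2, a subunit of the replicative helicase, stood at 92, 89.2 and 85.5 CPM with DMSO, 92.6, 81.9 and 90.3 with ipatasertib alone, 91.7, 107 and 99.3 with tazemetostat alone and 61.9, 52.9 and 62.3 with both drugs. The combination was lower in every library, and the departure was -0.74 (SE 0.11, adjusted p = 0.000512; -0.56 after correction). SDC1, the epithelial proteoglycan syndecan-1, stood at 295 ± 0.524, 285 ± 8.54, 321 ± 29.4 and 196 ± 26.6 CPM, and TYRO3, a receptor tyrosine kinase, at 20 ± 1.3, 20.2 ± 1.02, 20.6 ± 1.08 and 13.2 ± 0.724 CPM. Their departures were -0.66 and -0.65 (-0.47 and -0.53 after correction). In this form 114 of the 239 genes with a GC value (47.7%) were called also after correction, against 72% of those larger than the sum and 75.9% of those with opposite single effects.

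**Figure D4:**
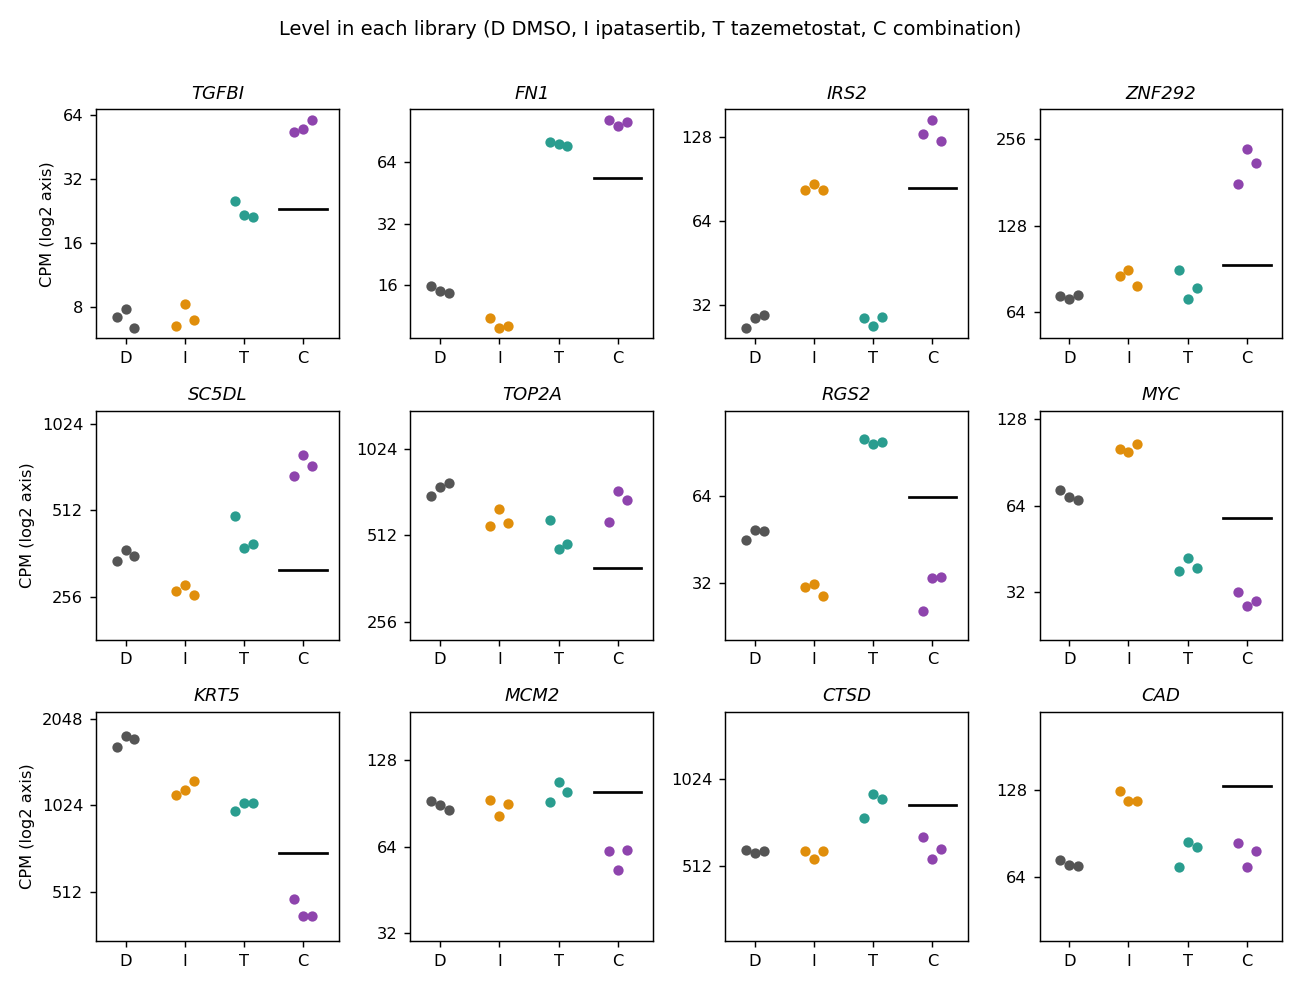
CPM in each library (log2 axis, libraries A, B and C from left to right) for 12 members, with a black bar at the level expected with the combination if the fold changes multiplied. Combination libraries lie above the bar in the first 6 genes and below it in the last 6; RGS2 falls to the ipatasertib level and MYC below all other groups.

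Promoters of the largest departures are shown to set the motif counts that follow beside actual sequence. The windows run from 250 bases before to 50 after the start site, 5' to 3' on the gene's strand, from RefSeq on GRCh38.p14. Shown are the 2 largest positive and the 2 largest negative named genes that had a window. Capitals mark the only match to a searched motif.

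BCAT1 (chr12:24949052-24949351, minus strand): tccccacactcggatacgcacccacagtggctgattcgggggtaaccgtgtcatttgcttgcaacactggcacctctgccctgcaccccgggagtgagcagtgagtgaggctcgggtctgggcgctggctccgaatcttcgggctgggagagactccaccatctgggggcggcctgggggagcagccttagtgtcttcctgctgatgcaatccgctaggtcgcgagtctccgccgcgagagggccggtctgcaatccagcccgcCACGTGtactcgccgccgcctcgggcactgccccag
NEXN (chr1:77888374-77888673, plus strand): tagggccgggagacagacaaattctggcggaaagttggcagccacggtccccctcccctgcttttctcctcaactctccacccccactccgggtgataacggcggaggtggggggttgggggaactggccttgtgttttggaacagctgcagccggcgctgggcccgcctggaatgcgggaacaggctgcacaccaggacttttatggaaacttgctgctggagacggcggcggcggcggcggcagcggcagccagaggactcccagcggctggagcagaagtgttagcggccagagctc
SNCAIP (chr5:122390839-122391138, plus strand): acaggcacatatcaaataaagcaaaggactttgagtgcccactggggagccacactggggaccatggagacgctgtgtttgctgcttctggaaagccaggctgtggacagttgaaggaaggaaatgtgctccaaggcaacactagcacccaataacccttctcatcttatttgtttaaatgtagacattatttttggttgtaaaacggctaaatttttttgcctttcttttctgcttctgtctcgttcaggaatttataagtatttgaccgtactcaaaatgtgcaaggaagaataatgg
MGAT5 (chr2:134119685-134119984, plus strand): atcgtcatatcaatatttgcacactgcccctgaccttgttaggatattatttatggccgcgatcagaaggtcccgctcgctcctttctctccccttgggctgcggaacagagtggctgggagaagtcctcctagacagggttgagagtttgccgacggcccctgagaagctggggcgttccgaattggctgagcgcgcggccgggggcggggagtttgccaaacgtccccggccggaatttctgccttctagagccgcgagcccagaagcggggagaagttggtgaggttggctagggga

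NEXN, which encodes the actin-binding protein nexilin, had 2.78 ± 0.367, 4 ± 0.151, 1.52 ± 0.302 and 7.97 ± 2.2 CPM, a departure of 1.87 (1.63 after correction). SNCAIP, which encodes synphilin-1, had 3.2 ± 0.347, 3.41 ± 0.528, 6.9 ± 0.592 and 2.52 ± 0.258 CPM, a departure of -1.56 (-1.60 after correction). Motifs were searched on both strands in the windows of 11228 tested genes matched by symbol, 709 of them above and 700 below the sum. GTAAACA, the core bound by forkhead factors such as FOXO, was in 2.3% of all windows, 3.24% of those above and 1.29% of those below the sum. TGACTCA, bound by AP-1, was in 3.14%, 2.96% and 2.71% in the same order. TGACGTCA, bound by CREB and ATF factors, was in 3.13%, 2.96% and 2.57%. The interferon-stimulated response element, which interferon regulatory factors bind, was in 2.74%, 3.53% and 3.29%. CACGTG, the E-box that MYC and related factors bind, was in 9.85%, 9.73% and 11.57%, and BCAT1 held one. The median GC content of the windows was 65% for all, 63.7% above and 66.7% below the sum. A match is a description of letters, and no match says nothing about the factor.

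Gene lists by function are described by how many tested members were called and by their median log2 departure, beside 12% called and a median of -0.02 over all tested genes. Cell division split in 2. Of 26 mitosis genes, 16 were above the sum and 0 below, with a median of 0.38. After GC correction 17 were above and 0 below, with a median of 0.32. Of the 16, 12 were lowered by each drug and fell short of the sum, and the other 4 were blunted falls. The lowest mitosis genes were MKI67 at -0.24, FOXM1 at -0.08 and PLK1 at 0.03, none of them called. Of 32 DNA replication genes, 12 were below the sum and 1 above, with a median of -0.22; after correction 15 were below and 1 above. The 12 were the 6 subunits of the replicative helicase (MCM2, MCM3, MCM4, MCM5, MCM6 and MCM7) with MCM10, GINS2, FEN1, CCNE1, E2F1 and E2F2. The exception was the clamp loader subunit RFC3, at 0.58 (0.38 after correction). Mitosis transcripts thus lay above and replication transcripts below the level expected from single drugs, in the same libraries. Leaving out combination A, a fit that called 22% of all genes, gave 20 mitosis genes above and 0 below, and 12 replication genes below and 1 above. Leaving out the A library of every group, which called 37.3% of all genes, gave 20 mitosis genes above and 1 below, and 17 replication genes below and 4 above.

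Metabolic lists departed less evenly. Of 25 cholesterol synthesis genes, 8 were above the sum and 1 below (median 0.21), and after correction 10 of the 23 with a GC value were above and 0 below. Of the 9 first called, only CYP51A1, EBP, IDI1 and INSIG1 were called after correction, and SC5DL and SC4MOL had no GC value. INSIG1, which holds the activator of the pathway in the endoplasmic reticulum, stood at 261, 259 and 271 CPM with DMSO, 127, 145 and 144 with ipatasertib alone, 341, 287 and 302 with tazemetostat alone and 214, 229 and 228 with both drugs. Ipatasertib lowered it in both settings, by less with tazemetostat present, and its departure was 0.46 (adjusted p = 0.0077; 0.45 after correction). IDI1, isopentenyl diphosphate isomerase, had 420 ± 5.05, 241 ± 15.4, 393 ± 59.6 and 323 ± 23 CPM, a departure of 0.52 (0.39 after correction). The cholesterol carrier STARD4 had a departure of 0.72 that was not called after correction (0.34, adjusted p = 0.0891). Of 33 lysosome and autophagy genes, 6 were below and 0 above (median -0.14), 5 and 1 after correction. Of 22 glycolysis genes 4 were below and 0 above, 2 and 0 after correction, with PFKL at -0.59 (-0.39 after correction). Of 20 fatty acid synthesis genes 1 was above and 3 below, among them FASN at -0.39, which was not called after correction (-0.21, adjusted p = 0.0979). Of 30 genes of oxidative phosphorylation 2 were above and 1 below, and of 23 ribosome biogenesis genes 1 was above and 4 below. The medians of these last 4 lists were -0.15 for glycolysis, 0.01 for fatty acid synthesis, 0 for oxidative phosphorylation and -0.04 for ribosome biogenesis.

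Signalling lists held few called members, whose direction is given for each list. Against 12% over all tested genes, the called share was 9.1% in ERK output and 7.4% in the ATF4 response. It was 8.3% in actin and SRF targets and 13% in heat shock genes. The other lists of this paragraph had 19% to 30%. Of 27 TGF-beta targets, 7 were above the sum and 0 below (median 0.11), 9 and 0 after correction, led by TGFBI and INHBA. Of 22 AP-1 and immediate early genes, 5 were above and 0 below, 7 and 1 after correction. Of 31 FOXO targets, 5 were above and 1 below with a median of 0.01, and their median effect of ipatasertib was 0.74 without and 0.78 with tazemetostat on the log2 scale. PIK3IP1, an inhibitor of PI3K, stood at 13.3 ± 1.4, 61.3 ± 2.98, 32.1 ± 2.69 and 140 ± 10.8 CPM, against an expected 148, and its departure of -0.07 was not called (adjusted p = 0.731). Of 21 YAP-TEAD targets 5 were above and 1 below, of 20 hypoxia targets 5 and 1, of 23 heat shock genes 3 and 0, and of 25 receptor tyrosine kinases 2 and 4. Of 22 ERK output genes, 0 were above and 2 below, MYC and SPRY4. After correction 4 of the 21 with a GC value were above and 2 below, with a median of 0.22. Of 27 genes of the ATF4 response 1 was above and 1 below, 5 and 1 after correction. List medians were 0.15 for AP-1, 0.1 for YAP-TEAD, 0.14 for hypoxia, 0.17 for heat shock, -0.15 for receptor tyrosine kinases, 0.18 for ERK output and 0.02 for the ATF4 response. Of 24 actin and SRF targets 1 was above and 1 below (median -0.05), and of 21 acute phase and JAK-STAT3 genes 2 and 2 (median 0.18). EZH2 itself, the target of tazemetostat, had a departure of -0.11 (adjusted p = 0.517) and AKT1 one of -0.23 (adjusted p = 0.138).

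Lists that characterise the epithelial state were mixed. Of 24 basal genes, 2 were above the sum, TP63 at 1.13 and CAV2 at 0.65, and 4 below, KRT5, KRT6B, KRT14 and KRT16. After GC correction 4 basal genes were above and 3 below, with a median of 0.11. Of 22 luminal genes 3 were above, including GATA3, and 3 below, including MUC1 and SPDEF. Of 33 mammary involution genes 4 were above and 4 below, and of 25 epidermal differentiation genes 1 and 4. Of 29 extracellular matrix genes 4 were above, with FN1 and TGFBI, and 4 below, with NOV. Of 23 matrix proteases and their inhibitors 1 was above and 1 below. Of 17 BCL-2 family genes 1 was above, PMAIP1, and 1 below, BMF, and neither was called after correction; BCL2L11 had a departure of -0.27 (adjusted p = 0.138). List medians lay between -0.23, for extracellular matrix, and 0.15, for matrix proteases. Of 14 milk and secretory genes 1 was below and 0 above (median -0.17), while DESeq2 called 2 above and 0 below.

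In the fit without GC correction, few or no members were called in lists of immune and Polycomb genes. Over all tested genes, 29.2% had an unadjusted p under 0.05 and DESeq2 called 15%. Of 19 MHC class I genes, edgeR called 0; 4 had an unadjusted p under 0.05 and DESeq2 called 1, below the sum. HLA-B, an antigen-presenting molecule with close copies, stood at 159 ± 1.78, 160 ± 13.6, 569 ± 13 and 513 ± 38.8 CPM, against an expected 575. Of 9 MHC class II genes edgeR called 0, with 0 at an unadjusted p under 0.05 and 0 by DESeq2, while their median tazemetostat effect was 2.47 on the log2 scale. Of 41 interferon-stimulated genes 1 was below, and of 35 developmental Polycomb targets 1 was above and 1 below. After GC correction, in a fit that called 12.6% of all genes, 5 of the 35 Polycomb targets were above and 1 below, with a median of 0.25. Of 16 NF-kB and cytokine genes edgeR called 0, with 6 at an unadjusted p under 0.05 and 1 called in each direction by DESeq2. Of 13 PRC2 genes edgeR called 0, with 2 at an unadjusted p under 0.05 and 0 by DESeq2. Medians were -0.15 for MHC class I, 0.02 for class II, -0.04 for interferon-stimulated genes, 0.16 for Polycomb targets, -0.17 for NF-kB and 0.03 for PRC2. A count of 0 does not show that these genes respond additively.

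**Figure D5:**
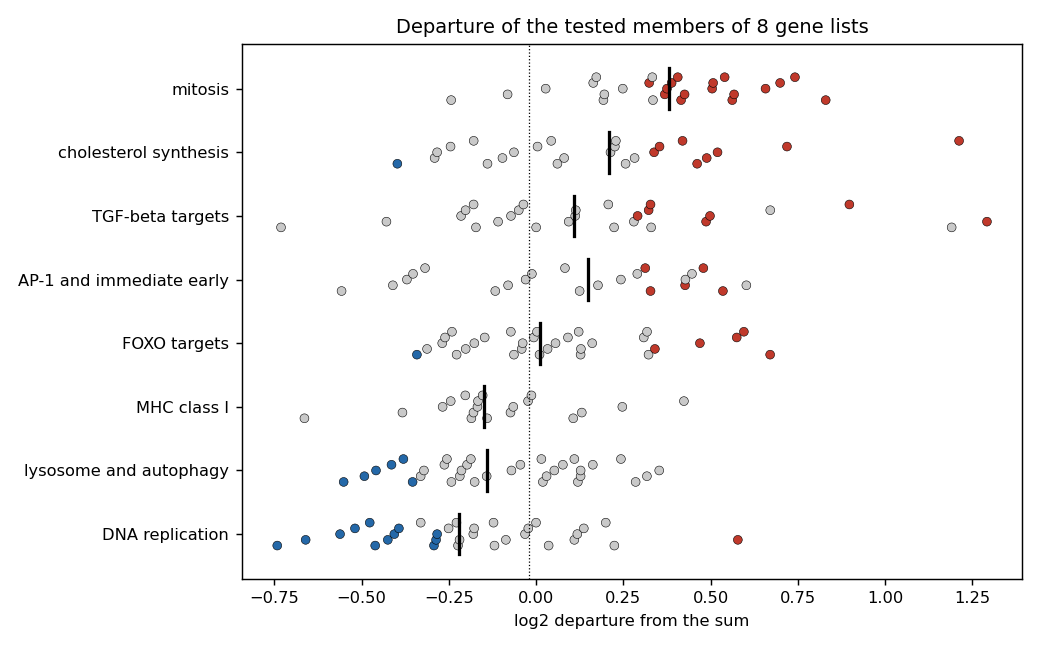
Log2 departure of each tested member of 8 gene lists (points; red above and blue below the sum where called, grey not called), with the list median (bar) and the median over all tested genes (dotted line). Mitosis genes lie to the right, 16 of 26 called above the sum, and DNA replication genes to the left, 12 of 32 called below it.

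The label of the cells was checked against their markers. EGFR, which this line amplifies, stood between 1004 and 2628 CPM in the 12 libraries, and KRT5 between 421 and 1779. Of the receptors that define other subtypes, ESR1 lay at 1.11 to 2.09 CPM, PGR at 0 to 0.105 and ERBB2 at 39.3 to 57.8. Summed markers of fibroblasts lay at 14.2 to 16.5 CPM without tazemetostat and 30.1 to 37 with it (10 markers). With DMSO, 5 of the 10 (COL1A2, DCN, LUM, THY1 and POSTN) had no read. The part of this rise in the departures of matrix genes was not tested. Leukocyte markers summed to 65.9 to 105 CPM and endothelial ones to 23.8 to 34.8 over the 12 libraries, with PTPRC, the pan-leukocyte marker, at 0 to 0.696 CPM. Of these lists 1 member departed, CSF1R at 0.61 (adjusted p = 0.028; 0.79 after correction), which stood at 3.28 ± 0.452, 4.8 ± 0.605, 8.72 ± 0.209 and 19.1 ± 1.37 CPM. In bulk RNA a change in the share of cells in a state, such as a phase of the cell cycle, and a change of RNA per cell cannot be told apart.

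The departures did not rest on the log scale for most genes. When single-drug changes were added as CPM in place of multiplied, 1727 of the 1744 called genes (99%) kept the sign of the departure, 1673 of them by more than 2 SE. Printed genes that kept the sign by less than 2 SE included KRT5, KRT14, TIMP3, CTSF, BMF, E2F1 and ALDH3A1 (-3.96 CPM, SE 2.38). The sign turned in 17 called genes, in 6 of these by more than 2 SE. The farthest from 0 was NOV, which exceeded the sum of the CPM changes by 44.7 CPM (SE 3.09) while falling short of the product. For 5 called genes, GFRA1, DCD, AFF3, ISM1 and LOC644189, fewer than 10 reads were summed in at least 1 group, so no size is given. Whether reads were counted by strand is not given in the sources at hand, which leaves the counts of overlapping and antisense genes uncertain.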

How the data were processed

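Poly(A) RNA of 12 MDA-MB-468 libraries (4 groups of 3, grouped by their titles) was used. As deposited by the authors, each library has a table of unnormalized read counts by gene symbol. Per the submitters' processing notes STAR, SAMtools, HTSeq and DESeq2 were used with the build hg19. Versions, annotation and strand are not given in the sources at hand. Lines that name no gene, 32.04% to 39.54% of the counted total, were left out. A deposited table of normalized values was not used here. Counts of 12981622 to 28746965 per library put 3 counts at 0.104 to 0.231 CPM, a floor that reflects counting error alone, because PCR copies of a molecule cannot be recognised.

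With edgeR 4.0.16 in R 4.3.3, genes were kept by filterByExpr (minimum count 10) and scaled by TMM factors. Group means were fitted by robust quasi-likelihood over the 12 libraries (8 residual degrees of freedom). The interaction contrast was adjusted by Benjamini-Hochberg over 14571 genes with a threshold of 0.05. Alternatives were DESeq2 1.42.0, scaling by RLE factors or by library totals, dropping the count filter or raising it to 50 counts in 3 libraries, a fit without robust shrinkage, a threshold of 0.01, the replicate letter as a block and each library left out. GC correction was added after seeing the data: a lowess trend over transcript GC content (GENCODE v29, longest transcript, matched by symbol for 12740 of 14571 genes) was removed from each library as offsets. The procedure was tested on simulated data.

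The members and the 37 gene lists were chosen with earlier results of these data known, so no list is independent support. Named genes were the 12 largest departures in each direction, the 3 largest per form and up to 3 per list (at least 5 CPM in the highest group, at least 10 counts in every group, a gene symbol as name), the largest genes that missed the 10 counts, a panel of 8, and the genes next to the threshold. Part of these are printed, and 30 further genes were looked up after their values were seen. Printed among these are AKR1C2, CAD, CCNB1, CDCA7, CDK1, E2F1, HLA-B, IGFBP4, INSIG1, MCM5, MCM6, MET, NFKBIZ, PLK1, PRSS23, SDC1, SOX4 and TFPI2.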

Additional observations from a re-analysis of the deposited data

Results flagged for a closer look

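Reads outside counted genes are a signal in data that the gene comparisons do not use. Their share was 25.21% of the counted total with the combination (SD 0.95, n = 3), against 19.85% ± 1.43 with DMSO. The ranges, 24.34% to 26.22% and 18.25% to 21%, did not overlap. The smallest two-sided p that 3 against 3 libraries allow in an exact permutation test is 0.1. The feature type that was counted is not known here, so such reads can include introns, and their part in the departures was not tested.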

How the results depend on the processing

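No named gene changed the sign of its departure in any of the alternatives run. Of the 153 named genes called, 94 were called in every alternative, and 128 of the 146 with a GC value after GC correction. The counts of called genes, genes above, genes below and sub-additive genes (1744, 869, 875 and 1128) became 397, 218, 179 and 215 at an adjusted p of 0.01, and library totals gave 1369 below. With the replicate block they were 1012, 533, 479 and 643. The letters do not pair the libraries: correlations of same-letter deviations were over 0.1 in all 3 pairs for only 1 of 6 pairs of groups, DMSO and ipatasertib. GC correction with the replicate block gave 1124 called, 515 below and 701 sub-additive, and GC correction without the A libraries 1372 above. Leaving out libraries gave 674 to 5452 called, 357 to 2605 above, 262 to 2847 below and 395 to 3269 sub-additive genes. In fits that leave 2 libraries in a group, the spread is taken from all groups. The causes of these shifts were not tested. In the library with the fewest counts, 3 counts correspond to 0.231 CPM, against 0.104 CPM in the one with the most.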

Other observations

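Several genes with small adjusted p-values fell outside the rules for naming and were chosen after their values were seen. LZTFL1, a regulator of traffic into cilia, rose from 23.6 ± 0.293 CPM with DMSO to 52.4 ± 3.28 with ipatasertib, 41.7 ± 4.5 with tazemetostat and 219.1 ± 16.4 with both (SD, n = 3). Its log2 departure was 1.24 (SE 0.116, edgeR adjusted p = 2.8e-06; 0.92 after GC correction). ERP27, a protein of the endoplasmic reticulum, went from 16.1 to 48.7, 22.8 and 147.8 CPM in the same order, a departure of 1.11 (1.05 after GC correction). NNMT, nicotinamide N-methyltransferase, went from 4.61 to 10.7, 11.5 and 51.5 CPM, a departure of 0.93 (1.03 after GC correction). NCAM1, the neural cell adhesion molecule, went from 60.7 to 90.4, 117.7 and 250.4 CPM, a departure of 0.51 (0.56 after GC correction). FAM3C, a secreted protein, went from 37.8 to 43.4, 56.6 and 127.9 CPM, a departure of 0.98 (0.73 after GC correction). These 5 genes stood highest with both drugs.

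Below the sum, AKR1C1, an aldo-keto reductase with close copies, rose from 127.1 ± 5.73 CPM to 188.2 ± 3.52 with ipatasertib and 186.6 ± 6.08 with tazemetostat, but stood at 153.3 ± 16 with both (SD, n = 3). Its log2 departure was -0.85 (SE 0.1, edgeR adjusted p = 3.83e-05; -0.95 after GC correction). CYP4Z1, a cytochrome P450 of mammary tissue, went from 15.9 to 18.5, 63.2 and 38.8 CPM, a departure of -0.92 (-0.98 after GC correction).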
